A study of Homo sapiens with 6 samples.

Results

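Serine palmitoyltransferase, often written SPT, joins serine to a fatty acyl-CoA and so begins the synthesis of sphingolipids in the endoplasmic reticulum. The ketone it makes is reduced, N-acylated by a ceramide synthase and desaturated to ceramide, the precursor of sphingomyelin and of glycosphingolipids. The liver is a major site of this synthesis, and the choice of SPT subunits and of ceramide synthase sets the length of the sphingoid base and of the acyl chain. The data below follow 10 genes of this route in Huh7 cells, a long-established line from a human liver cancer, after transfection of siRNA against SETD5, which encodes a SET-domain chromatin protein.

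The 10 genes were SPTLC1, SPTLC2, SPTSSA, SPTSSB, ORMDL2, KDSR, CERS2, CERS5, CERS6 and DEGS1. They were listed by symbol, and all 10 were present among the 14200 genes of the deposited table. They were chosen from the pathway with the differences between these same 6 libraries already known. Their changes are therefore given as a description, with standard errors and confidence intervals but no p-values. Where the outcome of the test described below is stated for them, it too is a description and no independent evidence. The 6 libraries were poly(A)-selected RNA sequencing libraries, 3 from control Huh7 cells and 3 from SETD5-deficient Huh7 cells (below, knockdown). All were grown in DMEM with serum, and siRNA was delivered with a lipid reagent. What the control cells received, and whether libraries with the same label are separate cultures, is not stated. The spread between libraries may therefore be technical.

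Between 14038447 and 17095417 reads per library could be recovered from the table. Levels are in CPM, read counts set relative to library size, and 3 reads correspond to 0.176 to 0.214 CPM. SETD5 itself stood at 202 to 212 CPM in the controls and at 136 to 140 CPM after knockdown, so that its message was reduced and not absent. All 7 hepatoma markers were present at high levels. By the test described below all 7 were called, 6 of them lower after knockdown. Of all tested genes, 52.1% were called, and 26.5% were called lower. Albumin (ALB) was at means of 6488 CPM in controls and 6912 CPM in knockdown libraries and AFP at 21336 and 20268 CPM, while APOB, TTR, TF, APOA1 and SERPINA1 stood at 0.682, 0.619, 0.784, 0.847 and 0.877 times the control. Of 5 immune markers looked for, 3 were in the table. PTPRC, which defines leukocytes, was at 1.13 ± 0.202 CPM in the controls (SD, n = 3) and 1.59 ± 0.294 CPM after knockdown, while LYZ went from 260 ± 13.1 to 649 ± 41.1 CPM. Of 6 endothelial and stromal markers, 3 were in the table, PECAM1 and CDH5 below 1 CPM and PDGFRB at 25.2 ± 2.43 and 18.2 ± 0.720 CPM. The summed level of the immune markers was 258 to 284 CPM in the controls and 628 to 705 CPM after knockdown, nearly all of it LYZ, and that of the endothelial and stromal markers was 23.6 to 28.7 and 18.0 to 19.5 CPM. The part of such markers in the results was not tested.

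Message levels of the subunits of the first enzyme and of the ceramide synthases changed unequally. Proteins were not measured. SPTSSB, a small activating subunit of SPT, rose to 4.55 times the control, while its paralog SPTSSA fell to 0.812 times. The large subunits SPTLC1 and SPTLC2 rose to 1.12 and 1.28 times the control. CERS2, the ceramide synthase that uses very-long-chain acyl-CoA, fell to 0.530 times. CERS6 and the desaturase DEGS1 fell by much less, and KDSR, CERS5 and ORMDL2 did not pass the test described next. In bulk RNA, a change in the share of cells that express a gene and a change of the message per cell cannot be told apart.

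A gene was called when its limma adjusted p over all 12865 tested genes was under 0.05. All 10 members passed the filter of a mean of at least 1 CPM, and 7 were called, 3 higher and 4 lower after knockdown. Over all tested genes 52.1% were called, 25.7% higher and 26.5% lower. Control and knockdown values did not overlap for 8 of the 10 members and for 57.3% of all tested genes. The median log2 fold change of the members was -0.13, against -0.0012 over all tested genes. Since the members were chosen with this contrast known, nothing is read from their counts. All log2 fold changes are differences of log2(CPM + 1), and the added 1 makes them smaller for genes at low levels.

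**Figure D1:**
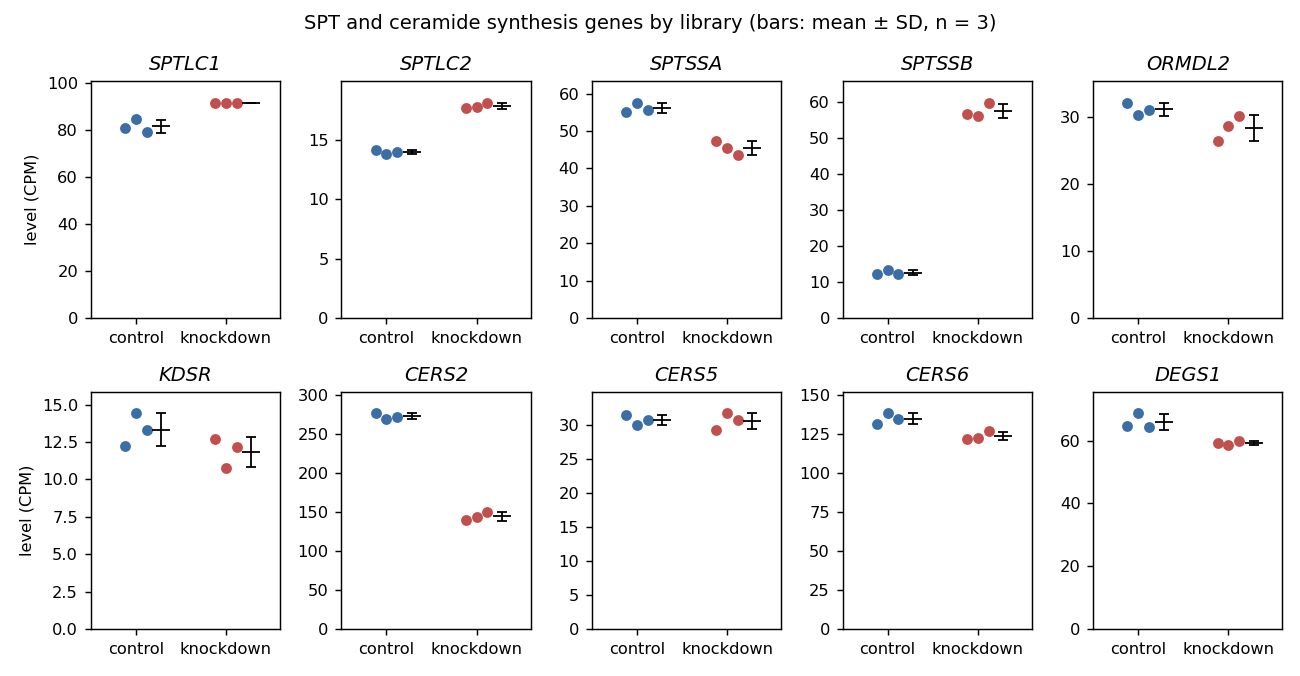
Level in CPM (y axis, from 0) of each of the 10 genes in the 3 control libraries (blue) and the 3 knockdown libraries (red), with the mean ± SD of each group in black. SPTSSB lies at 12.1 to 13.4 CPM in the controls and at 56.2 to 59.9 CPM after knockdown, CERS2 goes the other way, and the values of KDSR and of CERS5 overlap between groups.

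The word GCACCT in 3' untranslated regions was picked in an earlier scan of these same libraries, so its places in the members are shown first, as a description of the transcripts whose levels follow. In the principal GENCODE 29 transcript of each gene, 5 of the 10 members held it at 7 sites in all, in the sense direction. The 3' untranslated regions of the 10 members, with or without the word, are 466 to 6287 bases long. Of 11904 tested genes with such a region, 28.6% held the word, and a longer region has more chances to do so. The sites in 4 of these members are printed 5′ to 3′ with 10 bases on either side, on the strand of the message, and the capitals mark the word. Coordinates of the word are on GRCh38, minus strand except for CERS6.
CERS2, chr1:150965353-150965358: attacggctaGCACCTagcatttcag
CERS6, chr2:168772636-168772641: ggtcataagaGCACCTaaggccagca
KDSR, chr18:63329790-63329795: tcgaatgttgGCACCTtctactgctg
KDSR, chr18:63329635-63329640: aaatttaagaGCACCTgttgagagcc
SPTLC2, chr14:77511939-77511944: ccctctcccaGCACCTtgcagacttg
SPTLC2, chr14:77510614-77510619: gtggtggcggGCACCTataatcccac

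The sites are not all printed, so the genes that hold the word are not set against their direction of change. The siRNA sequences are not used here, and the part of these sites in the changes was not tested.

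SPT needs SPTLC1 together with a catalytic partner, SPTLC2 or SPTLC3. SPTLC1 was at 80.9, 84.6 and 79.2 CPM in control libraries 1 to 3 and at 91.8, 91.6 and 91.7 CPM in knockdown libraries 1 to 3. Every knockdown value lay above every control value (SD of 0.0723 CPM for knockdown and 2.75 CPM for control). With 1468 to 1534 reads per knockdown library, an SD of 0.0723 CPM lies below counting error. No difference in spread is read from it. The log2 fold change of 0.17 had a standard error of 0.038 (95% confidence interval 0.09 to 0.24). GENCODE lists 5 pseudogenes of SPTLC1, so the assignment of its reads is uncertain.

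SPTLC2 was at 14.1, 13.8 and 14.0 CPM in the controls and at 17.6, 17.7 and 18.1 CPM after knockdown. The groups did not overlap, with means of 14.0 ± 0.163 and 17.8 ± 0.260 CPM (SD, n = 3 per group). These values rest on 196 to 241 reads per control library and 282 to 303 per knockdown library. At that depth the SDs lie below counting error and do not measure the precision. The log2 fold change of 0.33 had a standard error of 0.072 (95% confidence interval 0.18 to 0.48).

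SPTLC3, the alternative catalytic subunit, which broadens the acyl-CoA range of the enzyme, is no member but belongs to a list of other subunits and isoenzymes. It stood at 112, 114 and 112 CPM in the controls and at 224, 235 and 229 CPM after knockdown. All knockdown libraries were thus near 2.04 times the control mean, and the log2 fold change of 1.02 had a standard error of 0.032 (limma adjusted p = 8.38e-25). Divided by the length of the principal GENCODE 29 transcript, SPTLC3 made up 91.4% ± 0.165 of the summed SPTLC2 and SPTLC3 level in the controls and 94.5% ± 0.138 after knockdown (SD, n = 3 per group). The sum of both rose to 1.98 times the control. SPTLC1 per kb was 2.16 ± 0.0562 times that sum in the controls and 1.23 ± 0.0297 times after knockdown. With coding length in place of transcript length these ratios were 0.755 and 0.433, so whether SPTLC1 stands above or below that sum depends on the length used.

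The small subunits SPTSSA and SPTSSB bind the SPTLC dimer, raise its activity and shift its choice of acyl-CoA, SPTSSB towards stearoyl-CoA. SPTSSB was at 12.4, 13.4 and 12.1 CPM in the controls, from 170 to 212 reads. After knockdown it was at 56.6, 56.2 and 59.9 CPM, from 906 to 1001 reads. The lowest knockdown library lay far above the highest control. The log2 fold change of 2.10 had a standard error of 0.059 (95% confidence interval 1.98 to 2.22).

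SPTSSA was at 55.0, 57.6 and 55.5 CPM in the controls and at 47.4, 45.4 and 43.7 CPM after knockdown. The groups did not overlap, and the log2 fold change of -0.30 had a standard error of 0.046 (95% confidence interval -0.39 to -0.20). The paralogs thus went opposite ways. Per kb of transcript, SPTSSB made up 16.8% ± 0.414 of the summed small-subunit message in the controls and 53.1% ± 1.76 after knockdown (SD, n = 3 per group). By library this share was 16.8, 17.2 and 16.4% for controls 1 to 3, against 51.7, 52.6 and 55.1% for knockdown libraries 1 to 3. Their summed level went from 24.3 ± 0.687 to 34.9 ± 0.451 CPM per kb, so that the gain of SPTSSB was larger than the loss of SPTSSA.

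**Figure D2:**
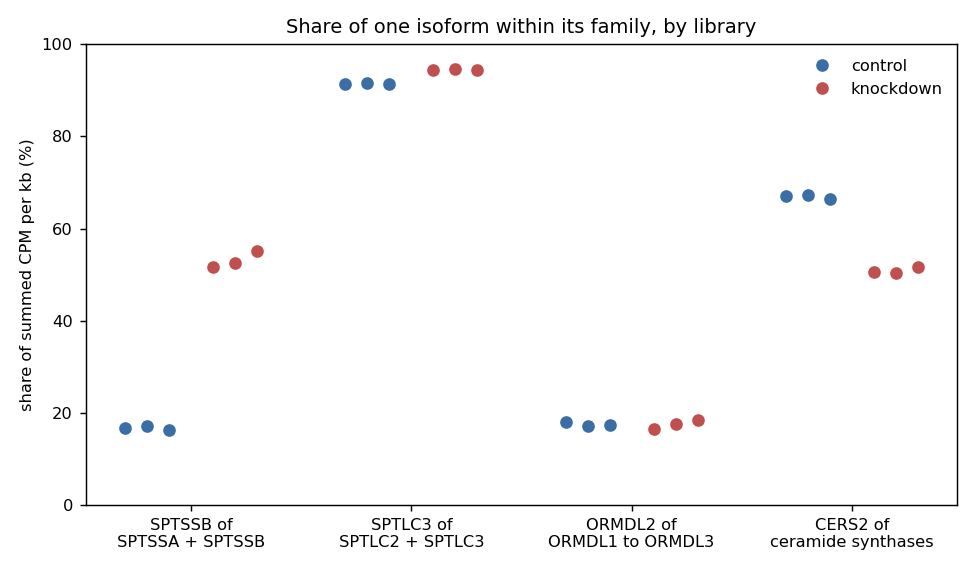
Share in percent (y axis, 0 to 100) of a single isoform in the summed CPM per kb of its family, a point for each control (blue) and knockdown (red) library. The SPTSSB share goes from 16.4 to 17.2% to 51.7 to 55.1%, the CERS2 share falls, the SPTLC3 share is high in both groups, and the ORMDL2 shares overlap.

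The genes whose pattern was most like that of SPTSSB were sought by the distance of log2 values, each centred on its control mean, over the 6 libraries. Of 10850 genes compared, each averaging 5 CPM or more in whichever group was higher, the nearest 5 were TM4SF4, CCDC80, TUBB3, SFRP5 and AREG, at distances of 0.19 to 0.43. TM4SF4, a membrane protein of the L6 family, was at 29.3 ± 2.24 CPM in controls and 127 ± 7.09 CPM in knockdown libraries (SD, n = 3 each). CCDC80, a secreted matrix protein, went from 22.2 ± 0.856 to 105 ± 2.85 CPM, and the neuronal tubulin TUBB3 from 27.3 ± 2.37 to 112 ± 3.17 CPM. SFRP5, a Wnt antagonist, and AREG, a ligand of the EGF receptor, were below 1 CPM on average in the controls and at 5.67 ± 0.616 and 7.16 ± 0.0391 CPM after knockdown. In CPM their means rose to 7.49 and 8.55 times the control, more than SPTSSB at 4.55 times, since the added 1 lowers the log2 change of genes this low in the controls. Both ratios rest on 7 to 20 reads per control library and are imprecise. With 115 to 119 reads per knockdown library, the SD of 0.0391 CPM for AREG lies below counting error. The measure compares these 6 libraries only, and all 5 genes were chosen by their change.

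ORMDL proteins hold SPT in check when ceramide is plentiful. ORMDL2 was at 32.1, 30.2 and 31.0 CPM in the controls and at 26.4, 28.6 and 30.2 CPM after knockdown. The highest knockdown value lay just under the lowest control, and the gene was not called, with a log2 fold change of -0.13 (standard error 0.059, 95% confidence interval -0.25 to -0.01). Without knockdown replicate 3 it was called, at a log2 fold change of -0.17, and without knockdown replicate 1 the change was -0.080 and not called. Its paralogs were at higher levels, with similar ratios of knockdown to control. ORMDL3 fell from 108 ± 1.55 to 98.5 ± 1.58 CPM (limma adjusted p = 0.00206), and ORMDL1 from 52.8 ± 2.42 to 48.2 ± 1.2 CPM (limma adjusted p = 0.02). The ORMDL1 call ended without the mean-variance trend (limma adjusted p = 0.0612) and without control replicate 2 (0.0925), control replicate 3 (0.0654), knockdown replicate 1 (0.0531) or knockdown replicate 2 (0.0705). The ORMDL genes together stood at 0.912 times the control per kb, and the share of ORMDL2 among them was 17.6% ± 0.497 in the controls and 17.6% ± 0.973 after knockdown.

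KDSR reduces the ketone that SPT makes. It was at 12.2, 14.4 and 13.3 CPM in the controls and at 12.7, 10.7 and 12.1 CPM after knockdown, from 175 to 209 reads. The groups overlapped, and the log2 fold change of -0.16 had a 95% confidence interval from -0.33 to 0.02. The gene was not called.

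Ceramide synthases attach the acyl chain, and each prefers certain chain lengths. CERS2, the main synthase of liver, was at 277, 269 and 273 CPM in the controls and at 139, 144 and 151 CPM after knockdown, from 2231 to 4730 reads. Every knockdown library was near 0.530 times the control mean. The log2 fold change of -0.91 had a standard error of 0.032 (95% confidence interval -0.98 to -0.85).

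CERS5 and CERS6 both use palmitoyl-CoA. CERS6 was at 132, 138 and 135 CPM in the controls and at 122, 122 and 127 CPM after knockdown. The groups did not overlap, but the difference was small beside that of CERS2, with a log2 fold change of -0.13 (standard error 0.034, 95% confidence interval -0.19 to -0.06). The antisense gene CERS6-AS1 was at 0 to 0.598 CPM, and whether counting used the strand is not stated. CERS5 was at 31.4, 29.9 and 30.7 CPM in the controls and at 29.3, 31.7 and 30.7 CPM after knockdown. Its log2 fold change was -0.0052, with a 95% confidence interval of -0.12 to 0.11, and it was not called. The interval rests on the spread between libraries, which may be technical, so a difference between cultures is not bounded by it.

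Of the other ceramide synthases, CERS4 rose from 33.9 ± 2.65 to 39.5 ± 0.570 CPM (SD, n = 3 per group, limma adjusted p = 0.00116). CERS1, the synthase of stearoyl-ceramides, was at 1.77 ± 0.185 and 2.18 ± 0.212 CPM and was not called. Per kb of transcript, CERS2 made up 66.9% ± 0.403 of the summed level of CERS1, CERS2, CERS4, CERS5 and CERS6 in the controls and 50.9% ± 0.678 after knockdown. The shares of CERS4, CERS5 and CERS6 went from 11.7 to 19.7%, from 9.31 to 13.3% and from 11.7 to 15.3%. The total went from 160 ± 2.65 to 112 ± 3.12 CPM per kb, so the shares of CERS5 and CERS6 grew while their own levels did not. With coding length in place of transcript length the CERS2 share was 58.0 and 42.9%, and CERS2 over CERS6 was 2.04 and 1.18, where transcript length gave 5.74 and 3.32.

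DEGS1 puts in the double bond that turns dihydroceramide into ceramide. It was at 64.6, 68.7 and 64.4 CPM in the controls and at 59.1, 58.6 and 59.7 CPM after knockdown. All knockdown values lay below the controls, with a log2 fold change of -0.15 (standard error 0.042, 95% confidence interval -0.24 to -0.07).

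**Figure D3:**
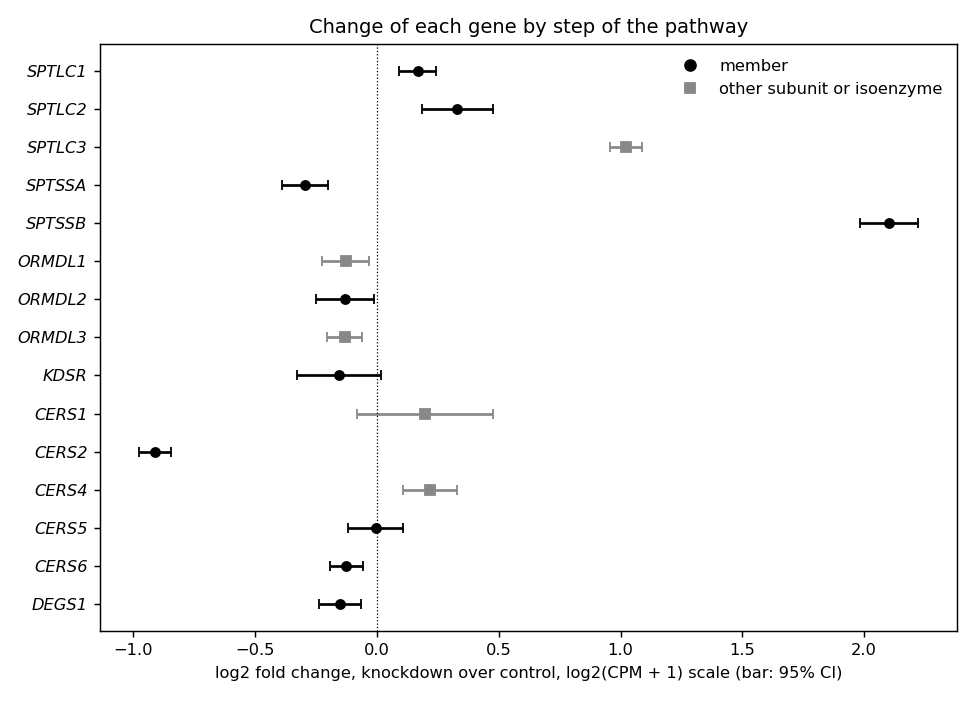
Log2 fold change of knockdown over control (x axis, log2(CPM + 1) scale) with its 95% confidence interval, for the 10 members (black circles) and their paralogs in the table (grey squares), ordered by step. SPTSSB at 2.10, SPTLC3 at 1.02 and CERS2 at -0.91 stand apart, and the others lie between -0.30 and 0.33.

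The members alone were set in order of level per kb of transcript, their paralogs left out. Control means were 107 ± 1.53 CPM per kb for CERS2, 43.1 ± 1.45 for SPTLC1, 31.4 ± 1.15 for DEGS1, 20.2 ± 0.490 for SPTSSA and 18.7 ± 0.473 for CERS6 (SD, n = 3). Below these came CERS5 at 14.9 ± 0.367 and ORMDL2 at 14.5 ± 0.450 CPM per kb, whose values overlapped. SPTSSB at 4.07 ± 0.208, KDSR at 2.44 ± 0.200 and SPTLC2 at 1.71 ± 0.02 CPM per kb were the lowest members. After knockdown SPTSSB, at 18.6 ± 0.644 CPM per kb, had moved above SPTSSA at 16.4 ± 0.672 and CERS6 at 17.1 ± 0.368. Transcript length was taken from a single annotated transcript per gene, and coding length gave another order. By coding length, SPTSSA at 263 ± 6.39 CPM per kb stood above CERS2 at 239 ± 3.41 in the controls, and SPTSSB at 55.5 ± 2.83 was close to SPTLC1 at 57.5 ± 1.94. The lowest members were then CERS5 at 26.1 ± 0.640, KDSR at 13.4 ± 1.09 and SPTLC2 at 8.28 ± 0.0969. After knockdown SPTSSB stood above SPTSSA by coding length as well, at 253 ± 8.77 and 214 ± 8.76 CPM per kb.

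The wider pathway was followed in 8 lists of genes drawn up by function, the members left out. Of 101 listed genes 88 were in the table and 84 were tested. Of these, 58 were called, 27 higher and 31 lower after knockdown, which is 69.0%. Over all tested genes 52.1% were called, 25.7% higher and 26.5% lower. The lists were drawn up with earlier results of these libraries known, so their counts and p-values describe these genes and are not independent evidence for a list. Their median log2 fold change was 0.00073 beside -0.0012 over all tested genes.

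The list of other subunits and isoenzymes, whose genes stand beside their paralogs above, had 2 of 6 tested genes higher (SPTLC3 and CERS4) and 2 lower (ORMDL1 and ORMDL3), with a median of 0.10. The shares over all tested genes were 25.7% higher and 26.5% lower. FADS3, a desaturase of sphingoid bases, was at 31.5 and 31.6 CPM and was not called.

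Of 9 tested genes that supply serine or interconvert it with glycine, 6 rose and 1 fell, where 25.7% and 26.5% of all tested genes did. The median log2 fold change was 0.19. The neutral amino acid transporters SLC38A1 and SLC38A2 rose to 1.30 and 1.24 times the control (limma adjusted p = 6.8e-13 and 2.45e-11), and SLC1A5 to 1.25 times (2.73e-09). PHGDH, which begins serine synthesis, rose from 235 ± 7.49 to 293 ± 8.56 CPM (6.61e-11). PSAT1 rose to 1.14 times the control, and SHMT2, which interconverts serine and glycine, to 1.08 times. The gene that fell was PSPH, which makes the last step to serine, from 201 ± 2.36 to 163 ± 3.89 CPM (limma adjusted p = 2.47e-10), and it is named after its values were seen.

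Genes that make or carry acyl-CoA split, with 4 of 18 higher and 9 lower and a median of -0.063. Of all tested genes, 25.7% were higher and 26.5% lower. ACACA, which makes malonyl-CoA, rose to 1.25 times the control (limma adjusted p = 1.33e-09). The acyl-CoA-binding protein DBI fell from 770 ± 15.7 to 628 ± 19.9 CPM (2.15e-11), and the acyl-CoA synthetases ACSL5 and ACSL6 to 0.575 and 0.478 times from levels of 5.04 and 3.12 CPM. ACSL4 was at 797 and 815 CPM and was not called. FASN fell to 0.927 times the control, a call that ended without the mean-variance trend (limma adjusted p = 0.107). Enzymes that lengthen acyl chains, picked out after their values were seen, also split. ELOVL1, which serves very long chains, fell to 0.830 times the control and ELOVL6 to 0.885 times, whereas ELOVL2 and ELOVL5 were called higher at 1.08 and 1.14 times. ELOVL4 and ELOVL7 were not called. HSD17B12 fell to 0.818 times and TECR to 0.824 times, whereas HACD3 rose to 1.15 times and HACD2 was not called.

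Glycosphingolipid synthesis genes rose in 5 of 8 tested cases and fell in none, with a median log2 fold change of 0.33. The share called in either direction, 62.5%, is near the 52.1% of all tested genes, of which 25.7% rose. UGCG, which makes glucosylceramide from ceramide, rose from 35.1 ± 0.867 to 44.8 ± 1.47 CPM (limma adjusted p = 4.36e-07). The lactosylceramide synthase B4GALT5 rose from 50.3 ± 1.19 to 65.1 ± 1.24 CPM (4.91e-09), and the GM3 synthase ST3GAL5 from 21.3 ± 2.02 to 27.9 ± 1.33 CPM (8.93e-06). B3GNT5, which opens the lacto series, was at 2.28, 1.88 and 2.29 CPM in the controls and at 5.38, 5.4 and 5.68 CPM after knockdown, with no overlap and a log2 fold change of 1.04 (limma adjusted p = 2.94e-09). B4GALT6 was at 6.44 and 6.47 CPM and was not called.

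Transport of ceramide and synthesis of sphingomyelin showed small differences, with 2 of 11 genes higher, 5 lower and a median of -0.091. Among all tested genes 25.7% were higher and 26.5% lower. The ceramide kinase CERK rose to 1.23 times the control (limma adjusted p = 7.89e-08) and PLEKHA8, which carries glucosylceramide, to 1.23 times (2.25e-06). SGMS1, the Golgi sphingomyelin synthase, fell to 0.900 times (limma adjusted p = 0.00951), and this call ended without the mean-variance trend (0.058), without control replicate 3 (0.0946) and without knockdown replicate 3 (0.0548). GLTP fell to 0.874 times, a call that ended without control replicate 1 (limma adjusted p = 0.0535) and without knockdown replicate 2 (0.154). OSBP and VAPA fell to 0.938 and 0.935 times, and both calls ended without the mean-variance trend (limma adjusted p = 0.0818 and 0.0919), that of VAPA also without control replicate 2 (0.0621).

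The list of sphingomyelin breakdown also takes in SMPDL3A and SMPDL3B, relatives of acid sphingomyelinase that are not counted here as sphingomyelinases. Its genes fell in 3 of 5 tested cases and rose in none, with a median of -0.22. Of all tested genes, 26.5% fell. With so few genes the count is near the 52.1% called in either direction. SMPDL3B, a membrane-anchored relative of acid sphingomyelinase, was at 21.2, 21.1 and 18.6 CPM in the controls and at 6.81, 9.21 and 7.36 CPM after knockdown. The groups were far apart, with a log2 fold change of -1.28 and a standard error of 0.090 (limma adjusted p = 1.51e-14). SMPDL3A fell from 37.2 ± 0.928 to 24.8 ± 1.12 CPM (1.19e-10). Acid sphingomyelinase, SMPD1, fell to 0.857 times the control (limma adjusted p = 0.0147). Its call ended without the mean-variance trend (0.0888), without control replicate 1 (0.0632) and without knockdown replicate 2 (0.212), where its log2 fold change was -0.11 in place of -0.22. SMPD2 was at 11.7 and 10.8 CPM and SMPD4 at 187 and 181 CPM, and neither was called.

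Ceramidases and sphingosine phosphate genes went both ways, with 6 of 14 higher and 5 lower and a median of 0.043. For all tested genes the shares were 25.7% and 26.5%. Among enzymes that cleave ceramide, the alkaline ceramidase ACER3 fell from 18.4 ± 0.876 to 12 ± 1.49 CPM (limma adjusted p = 1.64e-07), the neutral ceramidase ASAH2 to 0.563 times from 5.29 CPM (2.99e-05) and the acid ceramidase ASAH1 to 0.822 times (3.31e-08). ASAH2 has close gene copies, so its value is uncertain. The ceramidase ACER2 was at 2.44 and 2.97 CPM and was not called. The kinase SPHK1, which makes sphingosine phosphate, rose from 17.3 ± 0.253 to 23.0 ± 2.01 CPM (1.36e-05), and the receptor S1PR2 to 1.55 times from 3.45 CPM (limma adjusted p = 0.000542). SGPP1 and SGPL1, named after their values were seen, were called lower at 0.793 and 0.883 times the control. ALDH3A2 was called higher at 1.06 times the control, and that call ended without the mean-variance trend (limma adjusted p = 0.263) and without control replicate 1 (0.102), control replicate 3 (0.28), knockdown replicate 1 (0.229) or knockdown replicate 2 (0.168).

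Among genes of glycosphingolipid breakdown, most of them lysosomal, 6 of 13 tested were lower and 2 higher, with a median of -0.12. GBA2 and NEU3 of this list act outside the lysosome. Over all tested genes 26.5% were lower and 25.7% higher. SCARB2, which carries glucocerebrosidase to the lysosome, fell from 247 ± 4.47 to 173 ± 6.13 CPM (limma adjusted p = 2.82e-16). The activator protein gene GM2A fell from 38.7 ± 0.352 to 28 ± 0.515 CPM (4.52e-09), the sulfatase ARSA to 0.814 times (0.00118) and PSAP, the saposin precursor, from 1170 ± 24.8 to 1005 ± 7.04 CPM (2.93e-09). GLB1 fell to 0.900 times the control. The non-lysosomal GBA2 was at 128 and 121 CPM and was not called (limma adjusted p = 0.0503). It passed with a filter of 5 CPM (0.0458), with the replicate number as a block (0.0417) and without control replicate 2 (0.0423).

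**Figure D4:**
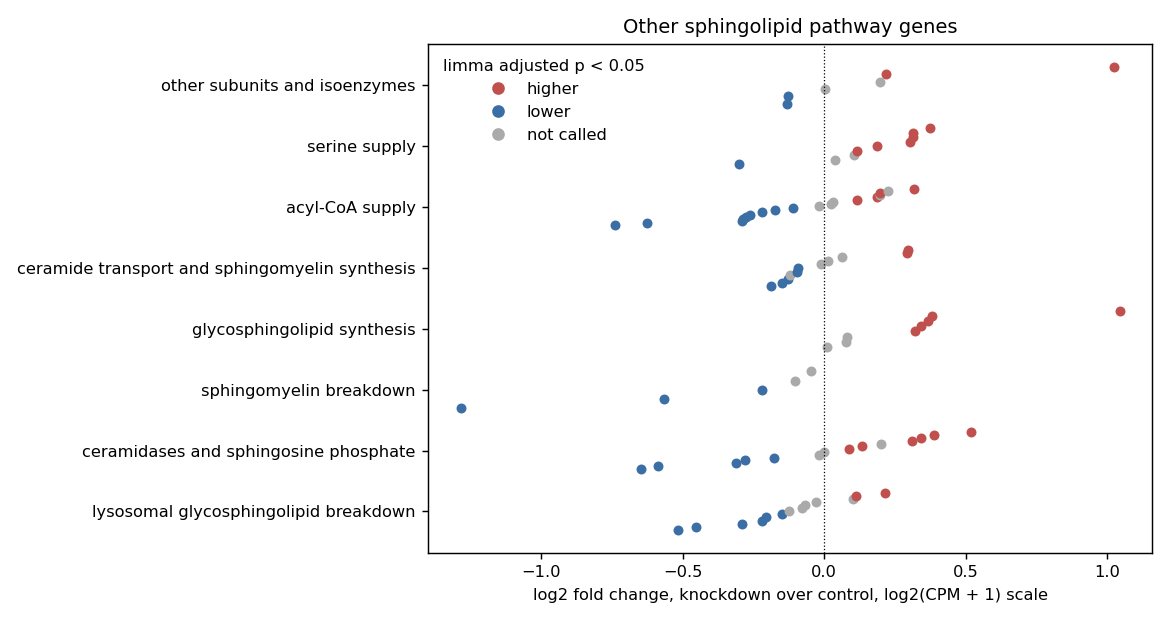
Log2 fold change of knockdown over control (x axis, log2(CPM + 1) scale) of the 84 tested genes of the 8 lists, a point per gene, coloured by the limma call. SPTLC3 and B3GNT5 lie near 1 on the right, SMPDL3B at -1.28 on the left, and no gene of glycosphingolipid synthesis is called lower or of sphingomyelin breakdown called higher.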

How the data were processed

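RNA sequencing libraries of Huh7 cells, 3 control and 3 SETD5 knockdown, were grouped by their labels. The authors deposited log2 values of normalized CPM for 14200 genes. The submitters' processing notes name STAR 2.5.1, R 3.3.0 and the builds hg19 and mm10 without a role for each. How reads were counted and scaled, whether strand was used and how genes were filtered is not given in the sources used here. When 2 was raised to each value, 1 subtracted and the result divided by the worth of 1 read in that library, 100% of values lay within 0.01 of a whole number, so the values are log2(CPM + 1). The depth behind each value is therefore known, and it covers counting error only. Some SDs lie below counting error, as for SPHK1 and GM2A in the controls, and do not measure the precision.

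Genes averaging 1 CPM or more over the libraries were tested with limma 3.58.1 in R 4.3.3 (mean-variance trend, two-sided, group as the only term, all 6 libraries), with Benjamini-Hochberg adjustment over all 12865. The test was also run on simulated counts in which few genes changed. Far more genes were called in these libraries, so that run does not check the calls made here. The chi-square of recovered reads was 1.26 to 2.15 per gene within groups and 20.6 to 25.3 between groups, so no library was treated as deposited more than once. This does not show that libraries were separate cultures. Lengths, 3' untranslated regions and the word search used the principal transcript of GENCODE 29 on GRCh38, and 1 site found is not reported here.

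The members and lists were chosen with earlier results of these data known. Named are all members and, of each list, up to 4 called genes with the largest change and up to 2 further genes with the highest level, of which the text gives most. Listed symbols were matched directly or through older names. Alternatives were another pseudocount, other filters, no trend, voom on recovered reads, other scalings, a replicate block and leaving out each library.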

Additional observations from a re-analysis of the deposited data

How the results depend on the processing

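Over 14 alternatives the number of called members was 7, apart from 8 without knockdown replicate 3, and no called gene among the 63 followed turned its direction. Of these 63 genes, 8 lost their call and 2 gained one under at least 1 alternative, as given above. Called pathway genes numbered 58, between 49 and 60 over the alternatives, and called genes over all tested genes numbered 6706, between 5868 and 6898. When each library was left out in turn, the counts ran from 53 to 59 for pathway genes, from 5981 to 6324 for all genes and from 7 to 8 for members. SPTSSB kept a log2 fold change of 2.07 to 2.19, and CERS2 of -0.94 to -0.88, whereas KDSR ran from -0.21 to -0.091 and CERS5 from -0.031 to 0.024. With the replicate number as a block (replicate block), 7 members, 60 pathway genes and 6898 of all genes were called. The correlation of deviations from the group mean was -0.011 to 0.054 between libraries of the same number. Between libraries of different number it was -0.060 to 0.021. The labels give only a number, and values this small do not decide whether libraries were handled in pairs. With 3 libraries a group and no statement on cultures, the precision for members with about 200 reads, such as KDSR, is limited by depth and replicates. The largest shift of the median of all genes by another scaling was 0.011.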
